A study of Mus musculus with 18 samples.

Results

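Markers of fibroblasts and of the perichondrium, the fibrous sheath around cartilage, were followed in RNA sequencing of lipochondrocytes, the lipid-storing chondrocytes of the mouse ear. The set held 10 genes chosen by name (Ly6a, Cd34, Pdgfra, Dpt, Pi16, Postn, Tgfbi, Tnc, Tnmd and Scx), of 46983 genes in the deposited table, and each name matched 1 row. The series held 18 libraries in 6 groups of 3. Ear lipochondrocytes came from mice of postnatal days 8, 10, 13, 21 and 33 (P8, P10, P13, P21 and P33), and adipocytes from inguinal fat of mice of postnatal day 33. The labels gave the genotype Wnt1-Cre2;TdTomato and the C57BL/6 background for all 6 groups, so no group differed from another in genotype. Wnt1-Cre2 switches on the red reporter in the neural crest lineage, which gives rise to connective tissue of the head and to Schwann cells as well as to cartilage. At P8, P10 and P13, cartilage had been digested with collagenase and cells high in TdTomato had been sorted. At P21 and P33, and for the adipocytes, the fraction that floated after centrifugation had been collected. The labels do not say whether a library was 1 animal or a pool, so p-values measure the spread between these libraries, which may be technical.

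The perichondrium carries the cells from which cartilage grows at its surface, and it passes into the fibrous connective tissue around it. Ly6a (also known as Sca-1) and Cd34 are cell surface proteins used to sort stromal progenitor cells, and both also mark endothelial cells. Pdgfra is the receptor tyrosine kinase by which fibroblasts respond to platelet-derived growth factors. Dpt (dermatopontin) is a small protein that binds collagen fibrils, and Pi16 marks a fibroblast population found around vessels in many tissues. Postn (periostin) and Tgfbi are related secreted proteins built from fasciclin domains, and Tnc (tenascin C) is a large glycoprotein of developing and injured connective tissue. Scx is a basic helix-loop-helix transcription factor of the tendon lineage. Tnmd (tenomodulin) is a membrane protein of tendon and ligament cells whose expression depends on Scx.

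The libraries held 12461965 to 27640142 reads, with 73.19% to 84.44% aligned. Levels are in FPKM, which divide each gene's fragments by its length and by the size of the library, so that levels of different genes can be compared. As a check of the labels, the summed level of 10 chondrocyte genes (Col2a1, Acan, Sox9, Cytl1, Mia and others) was 18212 to 29582 FPKM in the ear libraries and 1.35 to 2.24 in the adipocytes. The summed level of 8 adipocyte genes such as Adipoq and Cfd was 3.48 to 26.4 FPKM in the ear libraries and 90033 to 95812 in the adipocytes. Differences below are differences in log2(FPKM + 1), with their standard error (SE), from a limma model over 13815 genes. The pseudocount of 1 understates the change of genes near 0. A gene was called when its p, adjusted by Benjamini-Hochberg over all these genes, was below 0.05. Means are given ± SD (SD, n = 3).

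Of the 10 genes, 8 are in the RefSeq promoter table for GRCm38.p6. The 250 bases before the start site are shown for the 4 genes in that table that stood furthest above the mean of P8 and P13 at P10 (Dpt, Postn, Tnmd and Cd34), since these members moved together there. The windows are chr1:164796413-164796662 for Dpt, chr1:194938571-194938820 for Cd34, chrX:133850758-133851007 for Tnmd and chr3:54360857-54361106 for Postn, all on the plus strand and written 5′ to 3′. Capitals mark matches to 4 short motifs searched on both strands. These were the TATA box TATAAA, the AP-1 site TGANTCA, the E-box CATCTG and the TEAD site GGAATG.
Dpt: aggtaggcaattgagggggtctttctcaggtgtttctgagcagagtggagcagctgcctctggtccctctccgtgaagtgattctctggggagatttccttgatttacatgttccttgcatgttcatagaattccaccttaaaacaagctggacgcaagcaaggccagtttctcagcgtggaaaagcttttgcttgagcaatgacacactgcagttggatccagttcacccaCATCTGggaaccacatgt
Cd34: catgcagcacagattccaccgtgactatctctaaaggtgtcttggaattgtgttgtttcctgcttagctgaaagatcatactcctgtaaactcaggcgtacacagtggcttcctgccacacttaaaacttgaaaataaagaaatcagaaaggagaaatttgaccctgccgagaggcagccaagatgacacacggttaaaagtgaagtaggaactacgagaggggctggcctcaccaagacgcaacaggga
Tnmd: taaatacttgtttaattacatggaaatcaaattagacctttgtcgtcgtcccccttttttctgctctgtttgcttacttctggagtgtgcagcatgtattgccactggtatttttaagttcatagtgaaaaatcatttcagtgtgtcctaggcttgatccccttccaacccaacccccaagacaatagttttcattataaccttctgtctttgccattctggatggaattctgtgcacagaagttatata
Postn: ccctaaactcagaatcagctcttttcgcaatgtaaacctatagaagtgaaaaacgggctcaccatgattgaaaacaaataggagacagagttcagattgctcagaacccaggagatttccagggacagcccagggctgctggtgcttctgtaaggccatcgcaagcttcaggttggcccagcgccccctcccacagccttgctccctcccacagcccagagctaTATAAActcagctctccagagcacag
Postn had TATAAA starting 26 bases before its start, and 12.4% of 32851 such windows in the table held this motif on either strand. Dpt had CATCTG starting 18 bases before its RefSeq start, against 14.4% of windows with that motif. The RefSeq start lies 19 bases inside the GENCODE gene for Dpt and 28 bases inside it for Tnmd. By the GENCODE positions given below, the Dpt match thus lies within the gene. None of the 4 windows held TGANTCA (6.75% of windows) or GGAATG (12.6%), and the Cd34 and Tnmd windows held none of the 4 motifs. The matches describe the letters of these windows only.

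At P10 most of these genes stood above both neighbouring stages. Dpt, Ly6a, Cd34 and Postn rose from P8 to P10, and these 4 fell again from P10 to P13 together with Tnmd, Pi16, Tgfbi and Tnc. Set against the mean of P8 and P13, 7 of the 10 genes were higher at P10 and 0 were lower by the limma test (7 and 0 at an unadjusted p below 0.05), whereas 3.38% of all genes tested were higher and 19.9% lower. In 6 of them (Ly6a, Cd34, Dpt, Pi16, Postn and Tnmd) every P10 library lay above every P8 and P13 library, which was so for 3.00% of genes. The median difference of the 10 genes was 1.13, beside -0.17 over all genes. From P8 to P10, 4 of the 10 rose and 0 fell by the limma test (6 and 0 at an unadjusted p below 0.05), while 1.90% of all genes rose and 9.14% fell. The P10 libraries of 6 genes lay above all P8 libraries, as did those of 4.60% of all genes. In the next step, to P13, 8 of the 10 genes fell while 0 rose (8 and 0 at an unadjusted p below 0.05), and 4.03% of all genes fell and 18.6% rose. All 10 lay lower at P13 with no overlap, which was so for 9.71% of genes. Both steps share the P10 libraries. The 10 genes were chosen with earlier results of these data known, so these counts beside all genes are no independent test of a P10 peak. All 10 genes passed the filter on low values, Pi16 through the P21, P33 and adipocyte libraries and 1 sorted library.

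**Figure D1:**
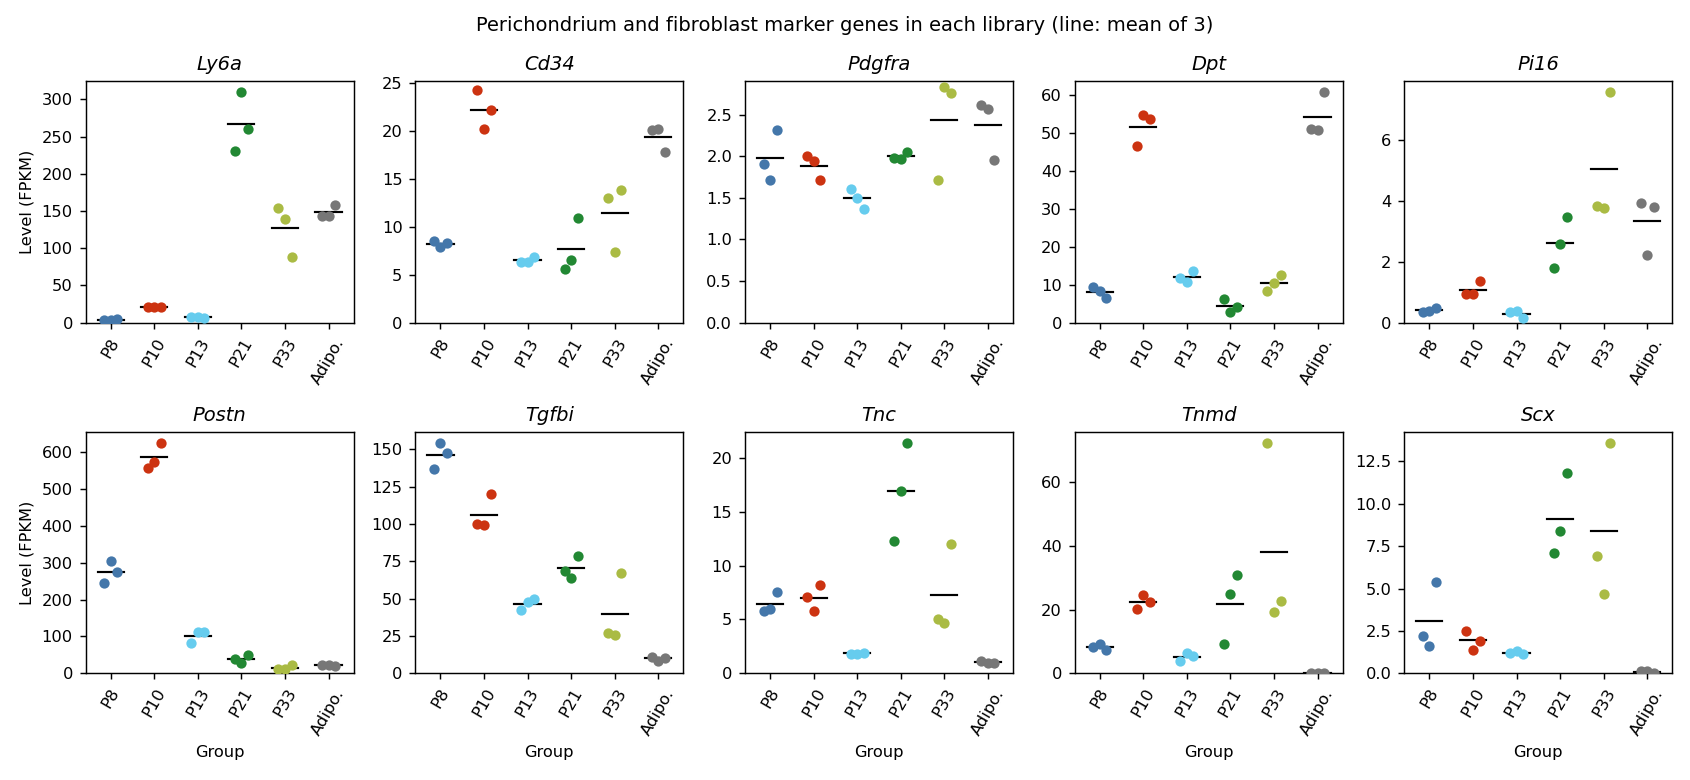
Level in FPKM (vertical axes, linear, each panel its own scale) of the 10 genes in each of the 18 libraries by group, with the mean of 3 libraries as a line. The P10 libraries of Ly6a (20.5 to 21.2), Cd34 (20.3 to 24.3), Dpt, Pi16, Postn (558 to 625) and Tnmd lie above all P8 and P13 libraries, and Ly6a is higher still at P21.

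Among the cell surface markers, Ly6a (ENSMUSG00000075602.10, chromosome 15, 74994877 to 74998031 of GRCm38) was at 3.22, 4.0 and 4.89 FPKM in the P8 libraries, 21.2, 21.1 and 20.5 at P10, and 7.24, 7.85 and 6.14 at P13. The P10 libraries were 5.19-fold above P8 and 2.96-fold above P13 in their means, with no overlap. Ly6a rose by 2.14 to P10 (SE 0.18, adjusted p = 3.21e-06) and fell by 1.45 to P13 (SE 0.18, adjusted p = 7.64e-05). Its level at P13 was above P8 by 0.69 (adjusted p = 0.0432), a call that was lost with the replicate number as a block (adjusted p = 0.0507) and without any 1 of 5 of the 6 libraries. Cd34 (ENSMUSG00000016494.9, chromosome 1, 194938819 to 194961279) was at 8.52, 7.91 and 8.28 FPKM at P8, 24.3, 20.3 and 22.2 at P10 and 6.37, 6.35 and 6.84 at P13. It was high at P10 only among these stages. Cd34 rose by 1.33 to P10 (SE 0.21, adjusted p = 0.00176) and fell by 1.63 to P13 (SE 0.21, adjusted p = 0.00011). Pdgfra (ENSMUSG00000029231.15, chromosome 5, 75152292 to 75198215) showed no such peak. Its values were 1.71 to 2.31 FPKM at P8, 1.71 to 2.00 at P10 and 1.37 to 1.61 at P13, and it was called in none of the 7 comparisons made. With median-of-ratios scaling it was called lower at P13 than at P10 (-0.43, adjusted p = 0.031), and the P10 and P13 libraries did not overlap.

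The reads of Ly6a may be shared with close relatives of the Ly6 family, and how the authors' counting split them is not stated. Its relative Ly6c1 was at 1.80 ± 0.55 FPKM at P8, 4.93 ± 0.47 at P10 and 3.70 ± 0.84 at P13. Ly6e, another relative, was at 22.4 ± 1.6, 21.8 ± 1.3 and 32.3 ± 4.9 FPKM, with no peak at P10.

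Of the secreted fibroblast markers, Dpt (ENSMUSG00000026574.5, chromosome 1, 164796644 to 164824266) was at 9.39, 8.25 and 6.47 FPKM in the P8 libraries, 46.5, 54.6 and 53.5 at P10 and 11.7, 10.6 and 13.7 at P13. This was the largest rise of the 10 genes from P8, 6.41-fold in the means. Dpt rose by 2.55 (SE 0.20, adjusted p = 1.62e-06) and then fell by 2.02 (SE 0.20, adjusted p = 1e-05). P8 and P13 were not called different (0.53, adjusted p = 0.198). Pi16 (ENSMUSG00000024011.16, chromosome 17, 29317680 to 29330593) was near 0 at these stages, at 0.35, 0.38 and 0.48 FPKM at P8, 0.93, 0.94 and 1.38 at P10 and 0.35, 0.4 and 0.14 at P13. Its P10 libraries lay above all the others, but the difference from the mean of P8 and P13 (0.62, SE 0.20, adjusted p = 0.0358) lost its call with no filter on low values (adjusted p = 0.077) and without any 1 of 6 of the 9 libraries. Its fall to P13 (-0.68, SE 0.23, adjusted p = 0.0454) lost its call with no filter (adjusted p = 0.0961) and without any 1 of the 6 libraries (adjusted p = 0.0743 to 0.145).

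The matrix proteins Postn, Tgfbi and Tnc differed from one another. Postn (ENSMUSG00000027750.16, chromosome 3, 54361109 to 54391037) was at 246, 304 and 274 FPKM at P8, 558, 574 and 625 at P10 and 81.2, 112 and 112 at P13, and had the highest mean level of the 10 genes at each of these stages. It rose by 1.09 to P10 (SE 0.24, adjusted p = 0.0121) and fell by 2.53 to P13 (SE 0.24, adjusted p = 6.4e-06), to a level below P8 (-1.43, SE 0.24, adjusted p = 0.00229). Tgfbi (ENSMUSG00000035493.9, chromosome 13, 56609523 to 56639562), its relative, was at 137, 155 and 148 FPKM at P8, 99.8, 99.5 and 119.9 at P10 and 42.5, 47.8 and 49.5 at P13. Each stage lay below the one before without overlap. The step of Tgfbi to P10 was not called (-0.46, adjusted p = 0.264) and the step to P13 was (-1.17, SE 0.26, adjusted p = 0.00498). Tnc (ENSMUSG00000028364.15, chromosome 4, 63959785 to 64047015) was at 5.76, 5.95 and 7.59 FPKM at P8, 7.06, 5.78 and 8.16 at P10 and 1.79, 1.84 and 1.93 at P13. P8 and P10 overlapped (0.10, adjusted p = 0.855), and the fall came between P10 and P13 (-1.48, SE 0.26, adjusted p = 0.00107). Its call at P10 against the mean of both neighbours (0.79, adjusted p = 0.0215) was lost without P10 replicate 1 (adjusted p = 0.0804) or P10 replicate 3 (adjusted p = 0.0856).

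**Figure D2:**
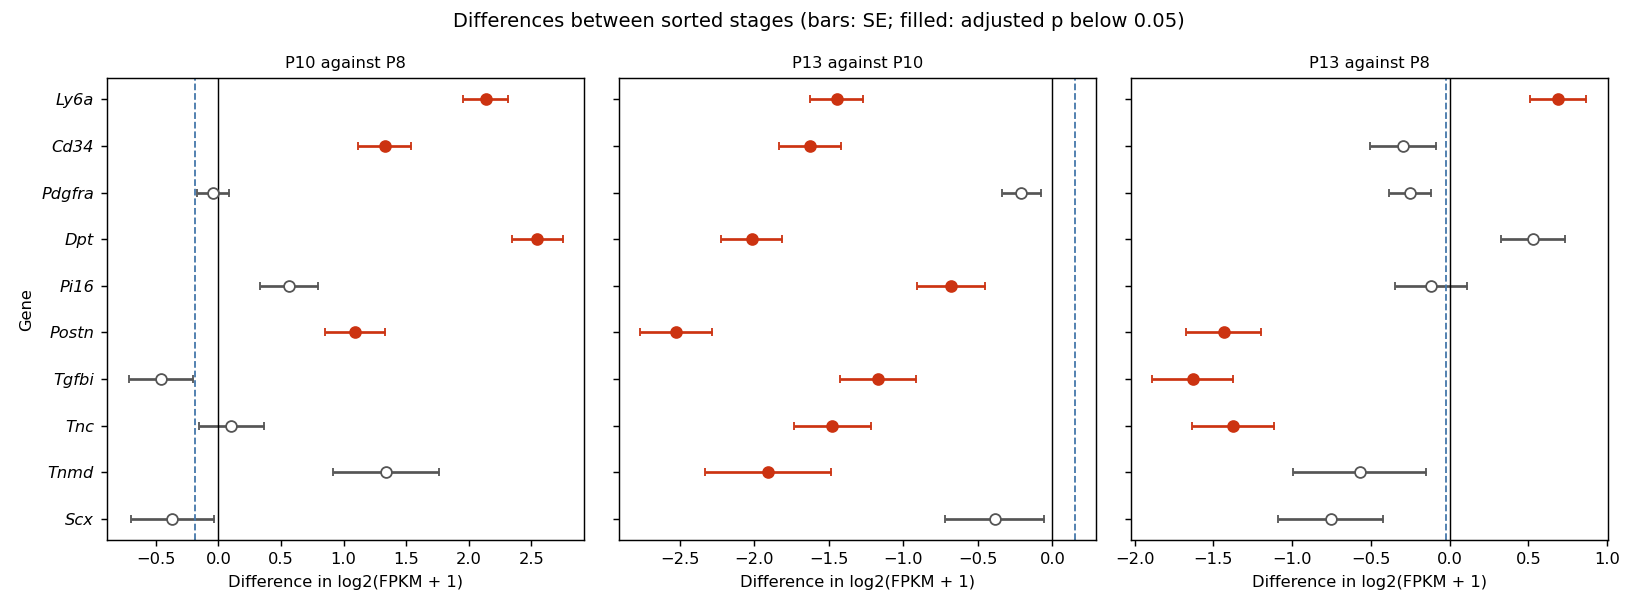
Difference in log2(FPKM + 1) between the sorted stages (horizontal axis) for the 10 genes, with SE as bars, called genes filled and the median of all 13815 genes as a dashed line. Ly6a, Cd34, Dpt and Postn are called to the right for P10 against P8, and 8 genes are called to the left for P13 against P10.

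The tendon lineage genes Tnmd and Scx did not share 1 course. Tnmd (ENSMUSG00000031250.8, chromosome X, 133850980 to 133865577) was at 8.25, 9.17 and 7.29 FPKM at P8, 20.2, 24.5 and 22.3 at P10 and 3.99, 6.52 and 5.33 at P13. The P10 libraries were above both neighbours without overlap. The step from P8 was 1.34 (SE 0.42) and missed the threshold (adjusted p = 0.0562). It was called with a pseudocount of 0.1 (adjusted p = 0.0469), with median-of-ratios scaling (adjusted p = 0.0424) and with only these groups modelled (adjusted p = 0.0102). It stayed uncalled with no filter (adjusted p = 0.114), with the replicate number as a block (adjusted p = 0.0711) and without any 1 library (adjusted p = 0.0929 to 0.139). Tnmd fell by 1.91 to P13 (SE 0.42, adjusted p = 0.00519) and was higher at P10 than the mean of both stages by 1.62 (SE 0.37, adjusted p = 0.00641). Scx (ENSMUSG00000034161.7, chromosome 15, 76457452 to 76459458) was at 2.18, 1.59 and 5.41 FPKM at P8, 2.51, 1.40 and 1.92 at P10 and 1.21, 1.32 and 1.14 at P13. P8 replicate 3 stood above the other libraries, and no comparison among the sorted stages called Scx (P10 against the mean of P8 and P13: 0.01, SE 0.29). Scx lies on the opposite strand within the Bop1 gene, and the use of strand in counting is not stated. In the adipocytes, where Bop1 was at 16.5 FPKM, Scx was at 0.00 to 0.16.

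P13 and P8 can be compared without the P10 libraries. Of the 10 genes, Postn, Tgfbi (-1.63, SE 0.26, adjusted p = 0.00147) and Tnc (-1.37, SE 0.26, adjusted p = 0.00601) were lower at P13, Ly6a was higher, and 6 were not called. Among all genes, 1.52% were lower and 2.69% higher.

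Related genes on 3 lists of fibroblast, adventitial and perichondrial or tendon genes showed the P10 peak in part. These lists too were chosen with earlier results of these data known and are not independent of them. Of 15 fibroblast collagen and matrix genes, 8 were higher at P10 than the mean of P8 and P13 and 0 were lower (12 and 0 at an unadjusted p below 0.05 in limma), with a median of 0.44. The microfibril protein Mfap5 was at 52.1 ± 2.2 FPKM at P10, 8.77 ± 2.4 at P8 and 10.1 ± 1.9 at P13 (2.37, SE 0.29, adjusted p = 8.79e-05). The proteoglycan Dcn was at 656 ± 54 FPKM at P10, 159 ± 19 at P8 and 220.3 ± 31 at P13 (1.81, SE 0.24, adjusted p = 0.000156). Col1a1, a chain of type I collagen, came next (1.54, SE 0.26, adjusted p = 0.000986). Of 15 adventitial and stromal genes, 6 were higher and 1 was lower (median 0.36). The lower gene, the protease Fap, was not called against P8 (adjusted p = 0.725) and rose from P10 to P13 (1.16). Clec3b, which encodes the plasminogen-binding protein tetranectin, went furthest, at 62.9 ± 12 FPKM at P10 against 11.7 ± 3 at P8 and 12.3 ± 2.6 at P13 (2.31, SE 0.25, adjusted p = 3.42e-05). Igfbp6, an insulin-like growth factor binding protein (1.5, SE 0.35, adjusted p = 0.00815), and the hyaluronan synthase Has1 (0.94, SE 0.11, adjusted p = 5.8e-05) were higher too. Dpp4, a surface protein of fibroblast progenitors, was at 0.21 ± 0.14 FPKM at P10 and not called.

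Of 17 perichondrium and tendon genes, 6 were higher at P10 and 2 lower (median 0.31). Sfrp2, a secreted Wnt modulator, was at 71.3 ± 5.9 FPKM at P10, 30.3 ± 4.6 at P8 and 7.26 ± 0.95 at P13 (2.17, SE 0.17, adjusted p = 9.68e-07). Thbs4 (1.47, SE 0.22, adjusted p = 0.000403) and Aspn (1.41, SE 0.19, adjusted p = 0.00019), matrix proteins of tendon and periosteum, were higher. Gdf5, a growth factor of joint and tendon progenitors, was lower (-1.11, SE 0.21, adjusted p = 0.00198), as was the transcription factor Prrx1 (-0.63, adjusted p = 0.00459). Neither was called against P8 alone, though the P10 libraries of both lay below all P8 libraries. The means at P8, P10 and P13 were 58.3, 37.2 and 113.8 FPKM for Gdf5 and 31.1, 22.1 and 37.9 for Prrx1. The tendon transcription factor Mkx was not called (-0.02, adjusted p = 0.976). With median-of-ratios scaling the counts higher and lower were 14 and 0 of 15 matrix genes, 8 and 0 of 15 adventitial genes and 10 and 1 of 17 perichondrium and tendon genes.

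**Figure D3:**
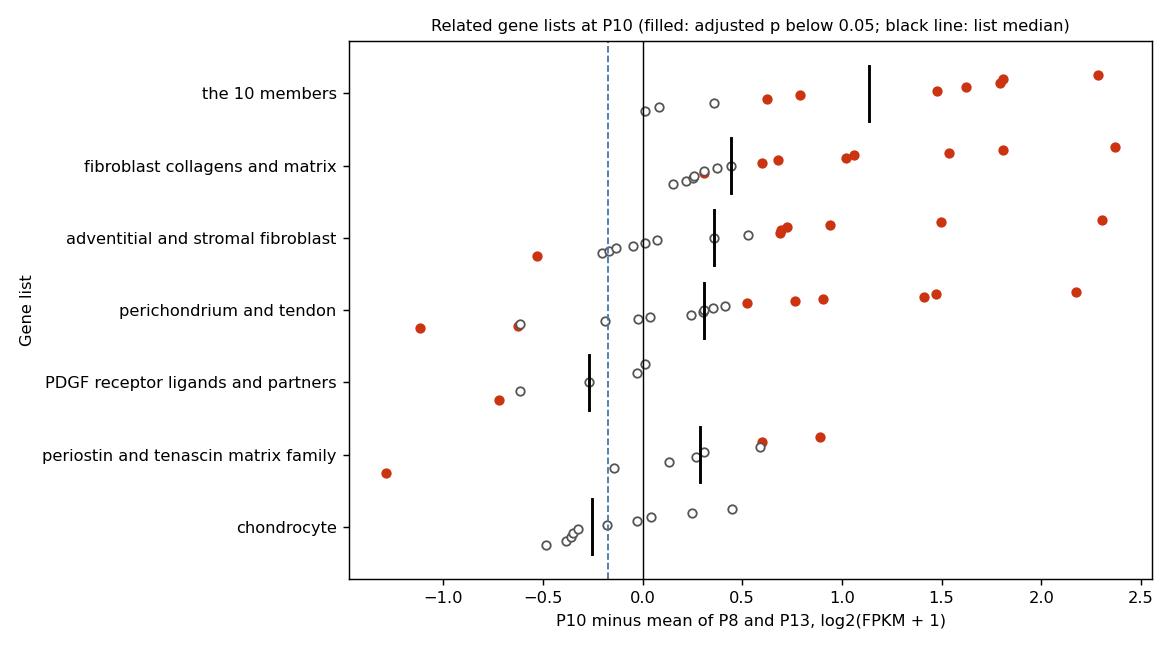
Difference of P10 from the mean of P8 and P13 in log2(FPKM + 1) (horizontal axis), 1 point per gene in 7 gene lists, with called genes filled, list medians as black lines and the median of all genes (-0.17) dashed. The 10 genes have a median of 1.13, the 3 fibroblast and perichondrium lists have medians of 0.31 to 0.44, and no chondrocyte gene is called.

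Other values were set beside those of the P10 libraries. These had 9254 to 9537 genes at 1 FPKM or more, below the 9778 to 10558 of the P8 and P13 libraries. The all-gene median of P10 against P8 was -0.19 and became 0.00 under median-of-ratios scaling. This scaling turned the split of all calls for P10 against P8 from 262 higher and 1263 lower to 489 and 142. For P13 against P10 the split went from 2567 higher and 557 lower to 1070 and 1301, and for P10 against the mean of P8 and P13 from 467 higher and 2756 lower to 1058 and 669. Of the 10 genes, 7 were higher and 0 lower at P10 against that mean under the same scaling. The chondrocyte list had 0 of 10 genes higher and 0 lower at P10 (limma, 0 and 3 at an unadjusted p below 0.05), with a median of -0.25. Of 6 lipid storage genes, 5 were lower at P10 than the mean of P8 and P13, but against P8 alone only G0s2, an inhibitor of lipolysis, was (-0.61, adjusted p = 0.0355), and all 6 rose from P10 to P13. Their sum was 375 to 459 FPKM at P8, 273 to 355 at P10 and 1607 to 1858 at P13. In these bulk libraries, fewer cells of a type and less RNA per cell cannot be told apart. The labels give no litter, sorting day or sequencing batch, so the stage and anything else shared by the 3 P10 libraries cannot be told apart.

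Markers of most other cell types were low. The 10 macrophage genes summed to 2.60 to 3.24 FPKM at P8, 5.49 to 6.50 at P10 and 3.77 to 4.79 at P13, so that the P10 libraries were the highest of these stages. Of them 0 were called higher and 0 lower at P10 against both neighbours (limma, 1 and 0 at an unadjusted p below 0.05). The P10 libraries of 6 of the 10 macrophage genes lay above all P8 libraries, as many as of the 10 members, beside 4.60% of all genes. In 2 macrophage genes they lay above all P8 and P13 libraries, beside 3.00% of all genes. The 10 endothelial genes summed to 3.36 to 6.13 FPKM at P10 and 5.84 to 9.07 at P8 and P13, with Cdh5 and Egfl7 lower than the mean of P8 and P13 and 0 higher (0 higher at an unadjusted p below 0.05). Against P8 alone 0 were called (limma, 1 higher, Tek, and 1 lower at an unadjusted p below 0.05). No macrophage or endothelial gene was at 0 in all 3 libraries of a sorted stage. Of the Schwann cell genes, S100b, also a chondrocyte gene, was lower than the mean of P8 and P13 (-0.90), but not called against P8 alone (adjusted p = 0.128). The Schwann cell list summed to 489 to 516 FPKM at P10 beside 445 to 548 at the neighbouring stages. Skeletal muscle genes (8 listed, 6 tested, 0 called, 0 at an unadjusted p below 0.05) summed to 19.5 to 25.9 FPKM, beside 7.21 to 8.99 at P8 and 25.7 to 40.0 at P13. The P10 libraries lay above all P8 libraries in 5 of the 6 tested muscle genes, and above all P8 and P13 libraries in 0. Of 6 smooth muscle and pericyte genes tested, Rgs5 was lower, and of 2 keratinocyte genes tested, Perp was higher. The 14 genes of the dissociation response summed to 13399 to 15087 FPKM at P8, 16304 to 19584 at P10 and 20436 to 24392 at P13 without overlap. Against the mean of P8 and P13, Nr4a1 and Dusp1 were higher and Jun and Btg2 lower at P10. Against P8 alone, 5 of the 14 rose and 2 fell, beside 1.90% and 9.14% of all genes. Nr4a1 and Dusp1 were among those that rose. Jun (-0.07, adjusted p = 0.809) and Btg2 (0.03, adjusted p = 0.96) were not called against P8, and both rose from P10 to P13. The part of these lists in the P10 levels was not tested.

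**Figure D4:**
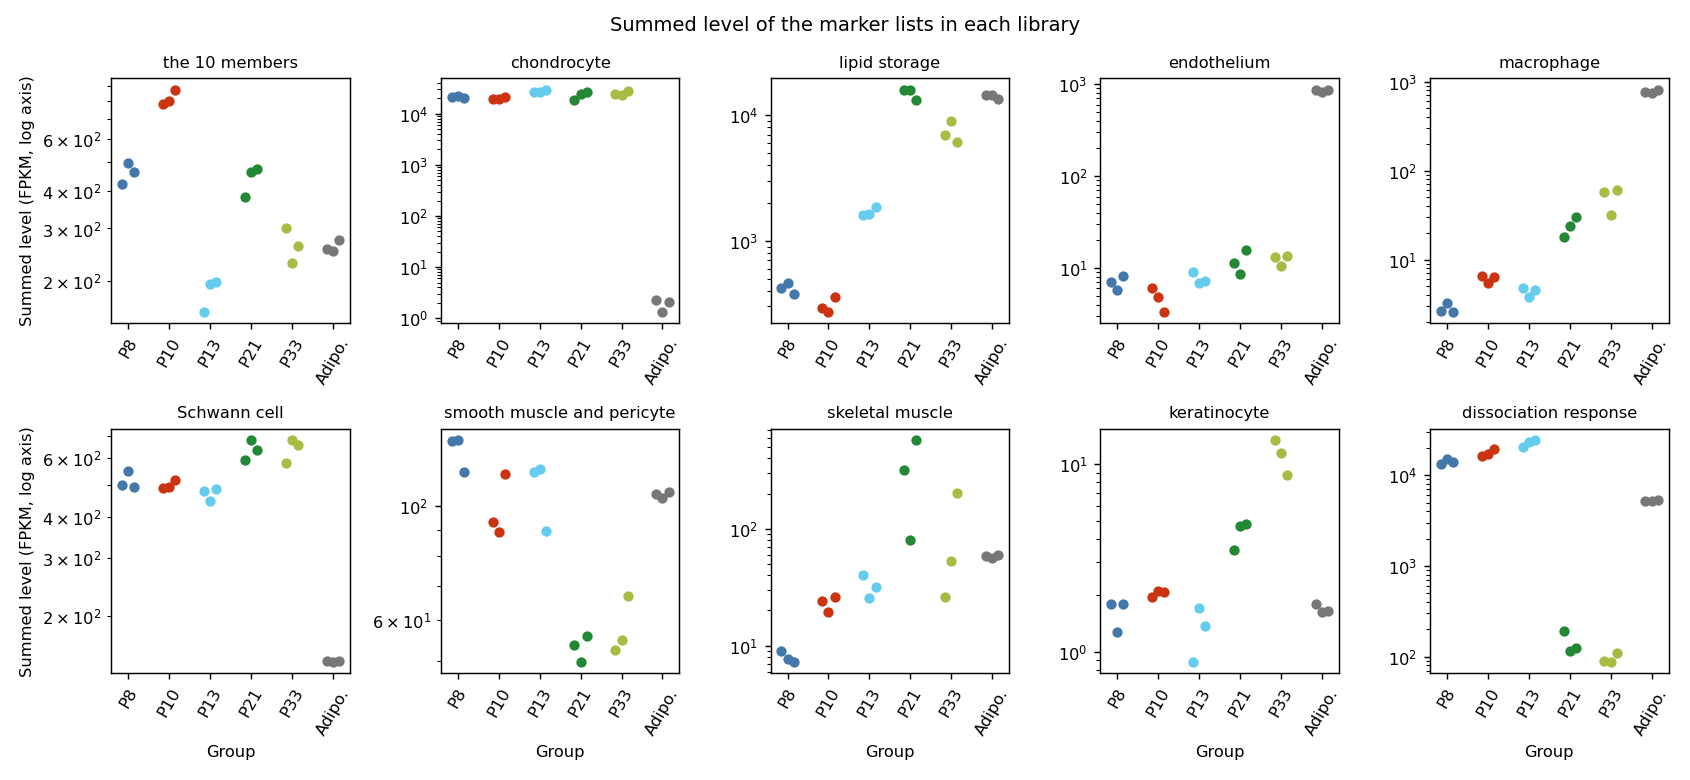
Summed level in FPKM (vertical axes, logarithmic, each panel its own scale) of the 10 genes and of 9 marker lists in each library by group. The 10 genes sum to 782 to 876 FPKM at P10, above all other libraries, and most of this sum is Postn (558 to 625). The endothelial list is at 3.36 to 15.8 and the macrophage list at 2.60 to 60.5 FPKM in the ear libraries.

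From P13 to P21 the markers parted. Ly6a, Tnc, Scx, Tnmd and Pi16 rose, Dpt and Postn fell, and Cd34, Pdgfra and Tgfbi were not called. Here the isolation changed from sorting to flotation together with the age, and the effect of one cannot be told apart from that of the other. Of all genes, 36.0% rose and 7.04% fell, with a median of 0.29, which median-of-ratios scaling brought to 0.05. The split of all calls went from 4977 higher and 972 lower to 2580 and 1888, and the 10 genes had 5 rises and 2 falls under that scaling.

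Ly6a was at 231, 309 and 260.3 FPKM in the P21 libraries and at 154, 139 and 88.6 at P33. Its rise from P13 was 37.7-fold in the means (5.05, SE 0.18, adjusted p = 3.78e-11), the largest step between neighbouring stages of any of the 10 genes. Its relative Ly6c1 rose too, to 327 ± 74 FPKM (6.11, SE 0.22, adjusted p = 3.78e-11). Tnc reached 12.3, 17.0 and 21.4 FPKM (2.62, SE 0.26, adjusted p = 2.16e-06). Scx reached 7.10, 8.42 and 11.8 FPKM (2.16, SE 0.33, adjusted p = 0.000133). Pi16 reached 1.80, 2.60 and 3.48 FPKM (1.46, SE 0.23, adjusted p = 0.000157). Every P21 library was above every P13 library in 7 of the 10 genes, these and Tnmd, Pdgfra and Tgfbi, which was so for 44.1% of all genes. Tnmd varied more, at 9.34, 24.8 and 30.9 FPKM (1.72, SE 0.42, adjusted p = 0.00464). Postn went to 38.2, 27.1 and 50.4 FPKM (-1.41, SE 0.24, adjusted p = 0.000308). Dpt went to 6.22, 2.86 and 4.17 FPKM (-1.30, SE 0.20, adjusted p = 0.000143). Dpt and Ly6a, both above their neighbouring stages at P10, lay at opposite ends of their ear ranges at P21. The uncalled members were Cd34 at 5.60, 6.57 and 10.98 FPKM (0.17, adjusted p = 0.561), and -0.15 with median-of-ratios scaling, and Tgfbi at 68.6, 64.0 and 78.4 (0.58, adjusted p = 0.0827).

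In the same step, 9 of 15 fibroblast collagen and matrix genes rose and 1 fell, led by Dcn (2.98), the microfibril gene Fbn1 (2.64) and Col1a1 (2.57). Of 15 adventitial genes, 8 rose and 2 fell, with Igfbp6 (4.01) and Entpd2 (2.32) next to Ly6c1. Of 17 perichondrium and tendon genes, 7 rose and 3 fell. Beside these lists, 36.0% of all genes rose and 7.04% fell. With median-of-ratios scaling the counts higher and lower were 8 and 4 of the matrix genes, 7 and 4 of the adventitial genes and 6 and 5 of the perichondrium and tendon genes. The small proteoglycan Fmod went from 188 ± 25 to 1519 ± 476 FPKM (2.96, SE 0.19, adjusted p = 2.92e-08) and Mkx from 10.2 ± 2.4 to 54.7 ± 21 (2.25, SE 0.30, adjusted p = 3.25e-05). The immediate early gene Egr1, on this list and also among the dissociation response, fell by 6.84. Skeletal muscle genes summed to 319.6, 80.9 and 573 FPKM in the P21 libraries, beside 25.7 to 40.0 at P13, and all 6 tested rose. P21 replicate 3 was highest in muscle genes and in all members but Ly6a and Dpt. The lowest was replicate 2 in muscle genes, Dpt, Postn, Tgfbi and Pdgfra, and replicate 1 in the other members. The dissociation response summed to 114 to 190.1 FPKM at P21 and 20436 to 24392 at P13, with 13 of 14 genes lower. Macrophage genes summed to 17.9 to 29.8 FPKM at P21, with 6 of 10 higher than at P13. The part of these in the members' levels was not tested.

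Between P21 and P33, both floated, Dpt rose and Ly6a, Postn, Tgfbi and Tnc fell, while 5 of the 10 were not called (2.87% of all genes rose and 7.17% fell). With P21 and P33 modelled alone, 0 of the 10 genes were called (limma, 4 at an unadjusted p below 0.05) and 126 genes in all. With median-of-ratios scaling the split of all calls went from 397 higher and 991 lower to 552 and 752. Dpt reached 8.41, 10.4 and 12.7 FPKM at P33 (1.12, SE 0.20, adjusted p = 0.00259). Ly6a fell by 1.09 (SE 0.18, adjusted p = 0.00127). Postn went to 10.4, 12.1 and 21.5 FPKM (-1.36, SE 0.24, adjusted p = 0.00209), with no overlap with P21. Tnc was at 5.03, 4.63 and 12.1 FPKM (-1.20, SE 0.26, adjusted p = 0.00848). Tgfbi was at 26.8, 25.8 and 67.3 FPKM (-0.94, adjusted p = 0.032), where replicate 3 lay within the P21 range, and its call was lost without any 1 of 5 of these 6 libraries. The P33 libraries were unequal in other members also, with Tnmd at 72.2, 19.2 and 22.7 FPKM. Scx was at 6.94, 4.69 and 13.6 FPKM and Pi16 at 3.83, 3.76 and 7.57. Replicate 3 was the highest P33 library in Dpt, Cd34, Postn, Tnc, Tgfbi, Scx and Pi16 and the lowest in Ly6a, while replicate 1 was the highest in Tnmd. Skeletal muscle genes summed to 25.9, 53.4 and 204 FPKM in the same libraries, and their part in these levels was not tested.

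Of the related lists from P21 to P33, 1 of 15 matrix genes rose and 5 fell, and 3 of 15 adventitial genes rose and 2 fell. On the list of 17 perichondrium and tendon genes, 3 rose and 2 fell. Beside these lists, 2.87% of all genes rose and 7.17% fell, and only 126 genes in all were called with P21 and P33 modelled alone. Thbs4 rose from 17.5 ± 5.3 to 100.03 ± 42 FPKM (2.38, SE 0.25, adjusted p = 2.51e-05) and Clec3b from 14.1 ± 3 to 53.3 ± 27 (1.75, SE 0.29, adjusted p = 0.00151). Cthrc1, a secreted protein of matrix-forming cells, fell by 1.89 (SE 0.15, adjusted p = 2.8e-06).

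The inguinal adipocytes, floated like the P33 cells and of the same age, shared several of these markers. Ly6a was at 144, 143 and 159 FPKM and overlapped the P33 lipochondrocytes (-0.26, SE 0.18, adjusted p = 0.209), and its difference turned to 0.12 with median-of-ratios scaling. Pdgfra (0.01, adjusted p = 0.933) and Pi16 (0.45, adjusted p = 0.0935) overlapped as well, and Pi16 was called higher in lipochondrocytes under that scaling (adjusted p = 0.00829). Dpt was higher in adipocytes, at 50.9, 50.7 and 60.7 FPKM (-2.27, SE 0.20, adjusted p = 8.47e-08). Among ear libraries only P10 replicates 2 and 3 reached that range. Cd34 was higher in adipocytes too, at 20.2, 20.2 and 17.9 FPKM (-0.76, SE 0.21, adjusted p = 0.00499), but was not called with median-of-ratios scaling (-0.39, adjusted p = 0.129). Postn was at 22.9, 22.8 and 19.2 FPKM and overlapped P33 (-0.59, adjusted p = 0.039, and adjusted p = 0.385 with that scaling). The scaling moved the all-gene median from -0.28 to 0.02 and the split of all calls from 3315 higher and 6151 lower to 4319 and 4558.

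The other 4 genes were higher in lipochondrocytes. Tnmd was listed at 0 in all 3 adipocyte libraries. Scx was at 0.16, 0.11 and 0.00 FPKM (3.00, SE 0.33, adjusted p = 1.06e-06). Tnc was at 1.13, 0.94 and 0.99 FPKM (1.92, SE 0.26, adjusted p = 9.49e-06). These 3 genes of tendon and matrix were thus at or near the bottom of the scale in adipocytes. Tgfbi was at 11.1, 8.59 and 10.6 FPKM (1.75, SE 0.26, adjusted p = 2.23e-05). Of all genes, 24.0% were higher in lipochondrocytes and 44.5% lower, beside 4 and 3 of the 10. The adipocyte libraries carried more of other cell types, with the endothelial list at 815 to 874 FPKM against 10.6 to 13.7 at P33 and the macrophage list at 756 to 816 against 31.4 to 60.5, all 10 genes of each list being higher. Ly6a and Cd34 are also endothelial markers, and the part of these cells in the adipocyte level was not tested. Among the lists, 14 of 15 matrix genes and 14 of 17 perichondrium and tendon genes were higher in lipochondrocytes, such as Fmod (2363 ± 195 against 0.64 ± 0.19 FPKM). Thbs4 was listed at 0 in every adipocyte library. The adventitial list was divided, with 7 higher, led by the enkephalin precursor gene Penk (7.43), and 6 lower, led by the complement gene C3 (-5.41).

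**Figure D5:**
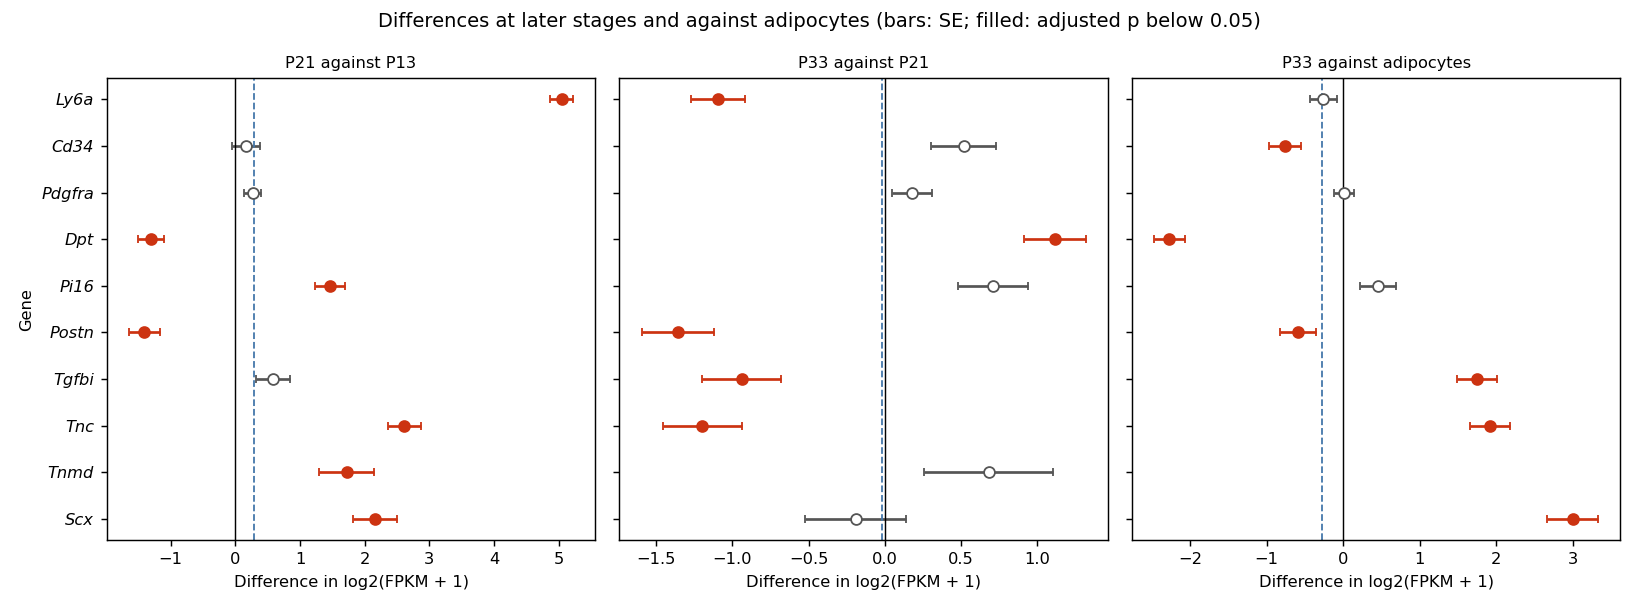
Difference in log2(FPKM + 1) (horizontal axes) of the 10 genes at later stages and between P33 lipochondrocytes and adipocytes, with SE as bars, called genes filled and the all-gene median dashed. Ly6a has the largest step to P21 (5.05), and Tnmd is left out against adipocytes, where it is listed at 0.

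Over the 6 groups, the 10 genes fell into several orders of mean level. Postn was highest at P10, followed by P8, P13 and P21, each apart from the next, and then by adipocytes and P33, which overlapped. Tgfbi ran P8, P10, P21, P13, P33 and adipocytes, with P13 and P33 overlapping. Ly6a ran P21, adipocytes, P33, P10, P13 and P8, with adipocytes and P33 overlapping. Cd34 was highest at P10, then in adipocytes, and P33, P8, P21 and P13 followed with each overlapping its neighbour. Dpt had adipocytes and P10 overlapping at the top, P13, P33 and P8 overlapping in turn below, and P21 apart at the bottom. Tnmd had P33, P10 and P21 overlapping at the top, then P8, P13 and adipocytes. Scx had P21, P33, P8 and P10 overlapping in turn above P13 and adipocytes. Tnc was highest at P21, P33, P10 and P8 overlapped in turn, and P13 and adipocytes lay below. Pi16 had P33, adipocytes and P21 overlapping in turn above P10, and P8 and P13 overlapping at the bottom. Pdgfra spanned 1.37 to 2.83 FPKM over all 18 libraries, and in its order all neighbours overlapped but P10 and P13.

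Genes with the most similar course over the 15 ear libraries were found by Pearson's r of log2(FPKM + 1) for Ly6a, Tnmd and Postn, among 4853 other genes with a mean of at least 5 FPKM. These r describe courses set largely by the group means, and the 15 libraries share the change of isolation. Ly6a was followed most closely by Ntrk2 (r = 0.98), Sepp1 (0.97), Epdr1 (0.97), Ly6c1 (0.97) and Serpina3n (0.96). Serpina3n, a secreted serine protease inhibitor, went from 22.1 ± 6.1 FPKM at P8 to 55.0 ± 9.1 at P10, 46.8 ± 2.6 at P13 and 902 ± 429 at P21. Tnmd was followed by Aspn (r = 0.94), Fibin (0.84), Thbs4 (0.84), Col1a2 (0.83) and C1qtnf2 (0.83), of which Aspn, Thbs4 and Col1a2 were also on the lists above. Aspn was at 45.2 ± 6.7, 110.0 ± 16, 36.6 ± 5.3, 114 ± 39 and 143 ± 34 FPKM over the 5 ear stages. Postn was followed by the glypican Gpc3 (r = 0.98), Bcl10 (0.98), the elastic fibre protein Fbln5 (0.98), Clic4 (0.98) and Fam180a (0.97). Gpc3 was at 150.0 ± 21 FPKM at P8, 199.8 ± 3.5 at P10, 75.3 ± 14 at P13, 17.4 ± 1.3 at P21 and 11.1 ± 3 at P33.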

How the data were processed

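RNA was sequenced from 15 ear lipochondrocyte and 3 adipocyte libraries. The authors deposited FPKM per gene and library, with 2 decimals. Per the file headers, a second deposited table holds the count of total and paired reads and the percent of reads paired and aligned. The submitters' processing notes name STAR 2.4.2a and mm10. Quantifier, annotation and strand setting were not given in the sources used here. FPKM hold no counts per gene, so counting intervals cannot be given, and a 0 may lie below detection. Unused per-sample columns numbered 0, and 0 library pairs held identical values.

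Values were changed to log2(FPKM + 1), a pseudocount of 1. Of 46983 genes, the 13815 with 1 FPKM or more in 3 or more of 18 libraries were tested. The 6 group means were modelled with limma 3.58.1 (moderated, with trend) in R 4.3.3, and 7 comparisons were tested two-sided with Benjamini-Hochberg adjustment over all genes, called below 0.05. The code was tested on simulated data. Gene identifiers are those of the deposited table, and positions are from GENCODE M21 (GRCm38). Figures used matplotlib 3.10.9. The 10 genes and all lists were chosen with earlier results of these data known, so the lists are not independent of them. By rule the text names the 10 genes, up to 3 called genes with the largest change per related list and comparison, the 5 genes nearest to Ly6a, Tnmd and Postn, and up to 3 genes per other list with the highest ear level. Prrx1, Dpp4, Mkx at P10, Ly6e, Bop1, Tek, Lpl and other adipocyte genes, Pdgfrl, and called genes of the marker lists were named after their values were seen. Alternatives were a pseudocount of 0.1, no filter, median-of-ratios scaling, only the compared groups modelled, the replicate number as a block, and leaving out each library.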

Additional observations from a re-analysis of the deposited data

How the results depend on the processing

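With single libraries left out, the number of the 10 genes called ran from 4 to 4 for P10 against P8, 7 to 7 for P13 against P10, 5 to 7 for P10 against the mean of P8 and P13, 3 to 4 for P13 against P8, 7 to 7 for P21 against P13, 4 to 6 for P33 against P21 and 6 to 7 for P33 against adipocytes. With only the compared groups modelled, P33 against P21 called 0 of the 10 genes and 126 genes in all, P10 against P8 351 and P13 against P8 347. With no filter, P10 against P8 called 985 genes. With median-of-ratios scaling, P10 against P8 called 631 and P10 against the mean of P8 and P13 1727. With single libraries left out, the counts over all genes ran from 520 to 1493 for P10 against P8 (520 without P10 replicate 1, 640 without P8 replicate 2, 794 without P10 replicate 2 and 914 without P8 replicate 3), 1938 to 2830 for P13 against P10 (1938 without P10 replicate 1), 1526 to 3193 for P10 against the mean (1526 without P10 replicate 1 and 2062 without P10 replicate 2), 339 to 509 for P13 against P8 (339 without P13 replicate 3 and 381 without P8 replicate 1), 4898 to 5366 for P21 against P13, 906 to 1802 for P33 against P21 (906 without P21 replicate 2) and 8842 to 9549 for P33 against adipocytes. The cause was not tested.

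Of the 10 genes, those that changed direction were uncalled. With median-of-ratios scaling these were Pdgfra for P10 against P8 (0.18), Cd34 for P21 against P13 (-0.15) and Ly6a for P33 against adipocytes (0.12). With single libraries left out, Pdgfra for P10 against P8 ran from -0.108 to 0.0367, Scx for P10 against P8 from -0.634 to 0.0192, for P10 against the mean from -0.125 to 0.204 and for P33 against P21 from -0.563 to 0.116, Cd34 for P21 against P13 from -0.0887 to 0.341 and Pdgfra for P33 against adipocytes from -0.0801 to 0.174.

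The labels do not say whether libraries of the same replicate number belong together, and the values below do not settle it. Deviations of same-numbered libraries correlated with r over 0.1 across genes in 13 of 45 pairs (median 0.02). A library correlated best with its own number, out of 3 numbers, in 42 of 90 cases. With the replicate number as a block, the calls over all genes went from 1525 to 1809 for P10 against P8, from 3124 to 3361 for P13 against P10 and from 3223 to 3457 for P10 against the mean. They rose in the other comparisons too, such as from 581 to 661 for P13 against P8 and from 1388 to 1546 for P33 against P21. Of the 10 genes, Ly6a lost its call for P13 against P8 (adjusted p = 0.0507) and Pi16 gained one for P33 against P21 (adjusted p = 0.0458). FPKM carry no depth per gene, which limits what can be said of Pi16 and Scx near 0.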

Other observations

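Of 6 genes for platelet-derived growth factors and receptors beside Pdgfra, 5 were tested, and Pdgfc, a ligand of Pdgfra, was the 1 called at P10 against the mean of P8 and P13. It was at 0.72 ± 0.12 FPKM at P10, 1.31 ± 0.37 at P8 and 2.50 ± 0.36 at P13 (-0.72, SE 0.12, adjusted p = 0.00111). Against P8 alone Pdgfc was not called. From P13 to P21, 4 of the 5 rose (3 with median-of-ratios scaling), where 36.0% of all genes rose. The 4 included Pdgfrb (1.47, SE 0.19, adjusted p = 2.78e-05), which encodes the other receptor, and Pdgfrl (1.04, SE 0.26, adjusted p = 0.00452). Pdgfra itself was called in neither comparison.

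Of 8 tested genes for partners and relatives of periostin and tenascin C, Tnxb and the matrix glycoprotein Fn1 were higher at P10 than the mean of P8 and P13 and the matricellular gene Ctgf was lower. Of these only Tnxb was called against P8 alone. Tnxb, a tenascin of loose connective tissue, was at 1.91 ± 0.42 FPKM at P10 against 0.53 ± 0.044 at P8 and 0.587 ± 0.14 at P13 (0.89, SE 0.09, adjusted p = 1.61e-05). Ctgf was at 203 ± 28 FPKM at P10, 302 ± 84 at P8 and 833 ± 73 at P13 (-1.29, SE 0.18, adjusted p = 0.000327), whereas Postn had its highest level at P10.

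Lpl, the lipoprotein lipase on the adipocyte list, was at 10.6 ± 1.1 FPKM at P10 against 2.44 ± 0.47 at P8 and 3.18 ± 0.4 at P13 (1.62, SE 0.13, adjusted p = 1.02e-06), beside 5123 ± 167 in the adipocytes. Adipoq, Cfd, Lep, Retn and Cidec of the same list were at 0 in all P10 libraries.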
